A study of Homo sapiens with 24 samples.

Results

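SW1783 is an established human astrocytoma cell line, and WESF is the hot water extract of Schisandrae Fructus, the dried fruit of Schisandra chinensis. The comparison described here set 3 libraries of cells given 500 µg/mL WESF for 24 h, the highest of 3 doses, against 3 libraries of cells given the vehicle with 0.1% DMSO for 24 h (vehicle A). These 6 libraries were chosen by their labels from the 24 of the series, and they share a batch, batch A. The comparison and the gene lists used below were set with earlier results of these data known. The other libraries used below were those at 20 and 100 µg/mL WESF, which also belong to batch A, and those with the ethanol extract (EESF) at 310 µg/mL and its own vehicle (vehicle B), which belong to batch B, again with 3 libraries in each group. The total of RSEM's expected counts was 26447834 to 28461841 per library with vehicle A and 20731749 to 24692309 with high-dose WESF. Transcripts of the mitochondrial genome held 9.02 to 9.21% of counts with the vehicle and 6.76 to 8.45% with WESF. With counts thinned to equal depth 3056 genes were called in place of 3158, and the part of the mitochondrial share in the results was not tested. The labels do not say whether the libraries of a group came from separate cultures, so p-values measure the spread between these libraries, which may be technical.

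Astrocytes are known by GFAP, an intermediate filament, and by the water channel AQP4 and the calcium-binding protein S100B. In these libraries GFAP had 3 to 8 counts, S100B 0 to 3, AQP4 0 and the stem cell factor SOX2 0 to 1. Of 29 genes on a list of astrocyte and neural stem genes, 17 passed the filter on low counts and 10 had at most 10 counts in every library. VIM, GJA1, GLUL, SOX9 and CD44 were among those that passed. All 17 genes on a list of mesenchymal and fibroblast markers passed, with COL1A1 the most abundant. The defining markers of microglia AIF1, P2RY12, TREM2, TYROBP, C1QA and C1QB were at 0 in all 6 libraries. The cells are therefore described below as SW1783 cells and not as astrocytes.

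The rounded expected counts of the 6 libraries entered the quasi-likelihood test of edgeR, which is 2-sided. A gene was called differentially expressed (DEG) when its fold change passed 1.5 and its p, adjusted by Benjamini and Hochberg, was below 0.05. Levels are given as CPM, the counts of a gene relative to the library total after TMM scaling. Among 13129 protein-coding genes tested, 11.1% were upregulated and 13.0% downregulated DEGs, 24.1% in all. The counts of gene lists given below are to be read against these shares. The median log2 fold change over all genes was 0.00, and 90% of genes lay between -1.003 and 0.89. Changes beyond 2-fold were found in 490 genes upward and 657 downward, and changes beyond 8-fold in 23 and 12. The 3 libraries of each group did not overlap in 71.5% of all genes, so the absence of overlap is common in this comparison.

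**Figure D1:**
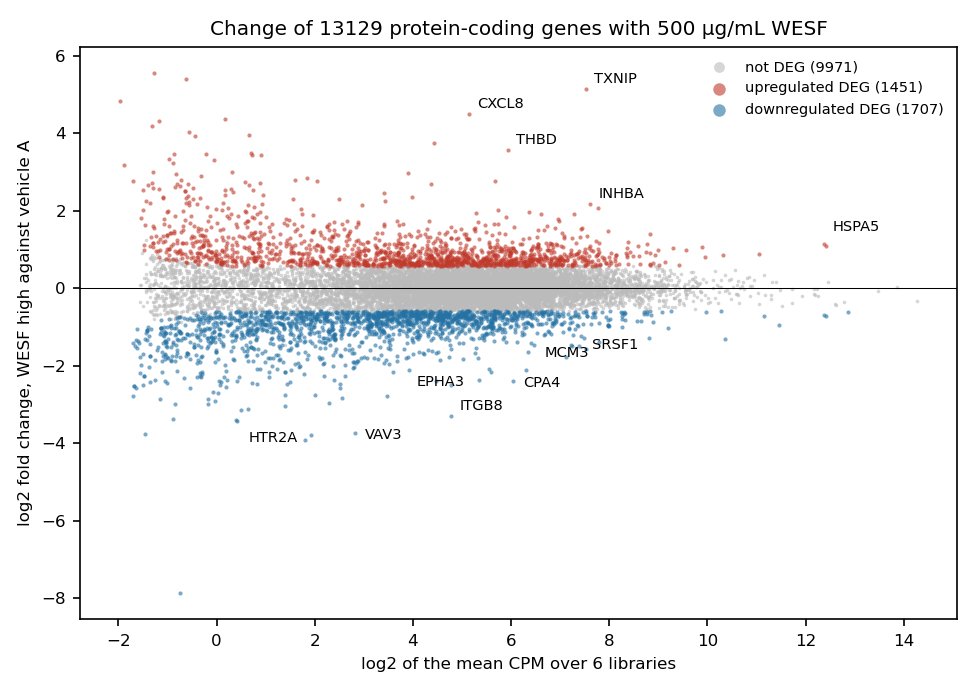
Log2 fold change with high-dose WESF against vehicle A (y axis) over the log2 of the mean CPM of the 6 libraries (x axis) for the 13129 protein-coding genes tested. Red and blue points are the 1451 upregulated and 1707 downregulated DEGs, and the widest changes lie among genes with few counts. The lowest point is the readthrough gene TGIF2-RAB5IF, which shares reads with the genes it joins and was at 0 CPM in the 3 libraries with WESF.

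The largest rises among genes with a mean of at least 5 CPM spanned secreted proteins, surface proteins and regulators of glucose uptake. THBD, the thrombin receptor thrombomodulin (chr20:23045633-23049672), had 10.03, 9.31 and 8.96 CPM with vehicle A and 114, 111 and 111 CPM with WESF. All libraries with WESF lay above all libraries with the vehicle (log2 fold change 3.57, SE 0.057, adjusted p = 2.06e-17). In the same direction, ANGPTL4, a secreted inhibitor of lipoprotein lipase (chr19:8363289-8374370), had 13.6, 11.96 and 13.3 CPM with vehicle A and 91.98, 86.9 and 86.6 CPM with WESF (log2 fold change 2.77, SE 0.059, adjusted p = 8.45e-16). GSDMB, a member of the gasdermin family of pore-forming proteins, had 3.05, 2.68 and 3.99 CPM with vehicle A and 16.6, 18.6 and 18.7 CPM with WESF (log2 fold change 2.47, SE 0.11, adjusted p = 8.58e-12). The homeobox gene HOXB9, the pannexin channel gene PANX2 and ADM2, which encodes a peptide of the adrenomedullin family, rose by 2.36, 2.31 and 2.26 on the log2 scale. The remaining 6 of the 12 largest rises were KRTAP2-3, given here, and TXNIP, CXCL8, IL1B, ARRDC4 and INHBA, described with their groups. KRTAP2-3, a keratin-associated protein with close copies among which RSEM divides reads, had 2.79, 3.04 and 3.05 CPM with vehicle A and 41.7, 35.2 and 43.4 CPM with WESF (log2 fold change 3.76, SE 0.098, adjusted p = 1.2e-14).

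The largest falls among genes with a mean of at least 5 CPM included enzymes, small GTPases and surface proteins. VAV3, a signalling protein that acts downstream of cell surface receptors, had 12.9, 14.4 and 12.1 CPM with vehicle A and 1.02, 0.935 and 1.01 CPM with WESF. The groups did not overlap (log2 fold change -3.72, SE 0.14, adjusted p = 6.57e-13). FAM13C, a gene of unsettled function, had 10.03, 10.8 and 10.1 CPM with vehicle A and 1.44, 1.43 and 1.49 CPM with WESF (log2 fold change -2.82, SE 0.12, adjusted p = 5.07e-12). RAB7B, a small GTPase of endosomal and Golgi traffic, had 20.7, 17.9 and 19.4 CPM with vehicle A and 2.88, 3.05 and 2.55 CPM with WESF (log2 fold change -2.78, SE 0.10, adjusted p = 6.35e-13). PADI2, which converts arginine of proteins to citrulline, had 9.52, 9.75 and 10.01 CPM with vehicle A and 1.78, 1.33 and 1.80 CPM with WESF (log2 fold change -2.56, SE 0.13, adjusted p = 2.46e-11). FAM13C, RAB7B and PADI2 were 7.05-fold, 6.85-fold and 5.91-fold lower with WESF in the means of the groups. KLHL4, LYPD1, the small GTPase RRAD, the carboxypeptidase CPA4 and the chloride channel protein CLIC3 changed by -2.48, -2.40, -2.48, -2.39 and -2.36 on the log2 scale. The tyrosine phosphatase PTPRC (CD45), which is known from leukocytes, had 9.44, 10.7 and 10.4 CPM with vehicle A and 2.07, 1.97 and 2.33 CPM with WESF (log2 fold change -2.26, SE 0.12, adjusted p = 4.79e-11). It stood on the list of microglial markers, of which 3 of 11 were tested, and 6 were at 0 in all libraries. CSF1R, the receptor for colony-stimulating factor 1, also fell, by 1.32, and CD68, a lysosomal protein and the most abundant gene of that list, had 176, 187 and 181 CPM with vehicle A and 236, 205 and 227 CPM with WESF (log2 fold change 0.30).

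**Figure D2:**
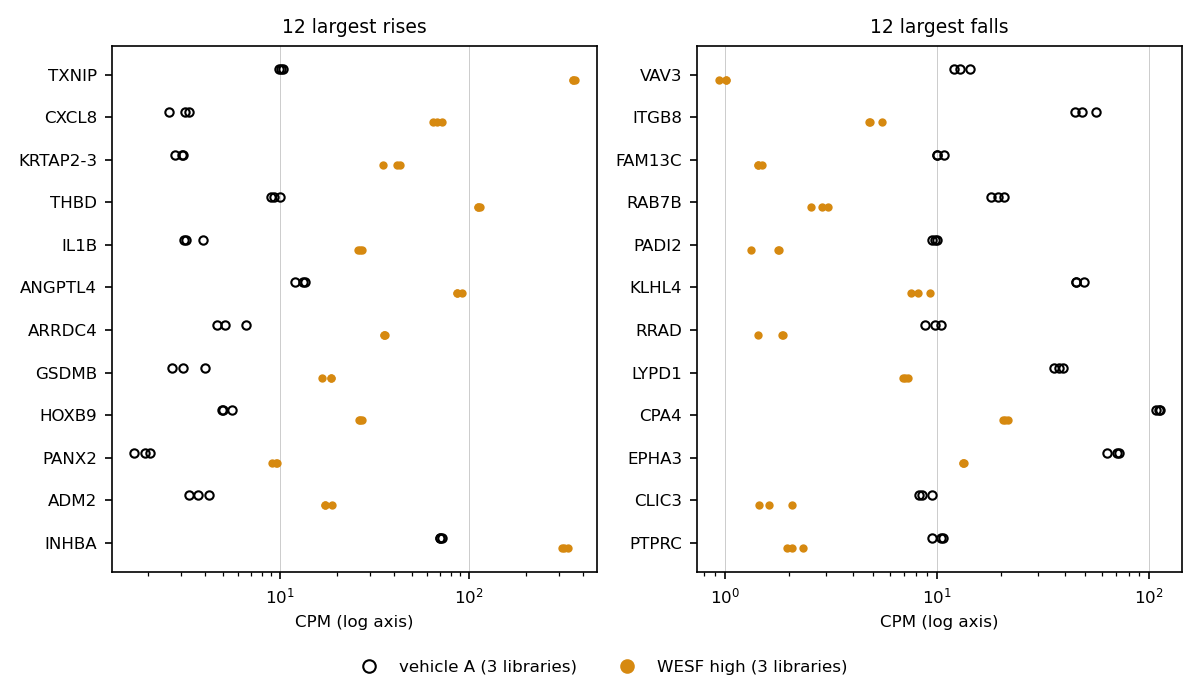
CPM per library (x axis, log scale) of the 12 genes with the largest rises and the 12 with the largest falls of DEGs that had 5 CPM or more on average and no overlap of the groups. Open circles are the 3 libraries with vehicle A and filled circles the 3 libraries with high-dose WESF. TXNIP went from about 10 CPM to between 355 and 365 CPM.

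The integrated stress response is a pathway in which kinases that sense amino acid shortage, misfolded protein or haem deficiency lower general translation and raise the translation of the transcription factor ATF4. ATF4 in turn binds composite sites together with C/EBP proteins and is known to activate genes for amino acid synthesis, amino acid import and tRNA charging. Such sites resemble the letters TGATGNAAN, which were searched for on both strands in the 250 bases before and 50 bases after the start of each gene (RefSeq promoters, GRCh38.p14, found for 10638 of the tested genes). Of all these promoters 1.66% held the letters. They were in 2 of 11 promoters of upregulated genes of the integrated stress response, in 2 of 8 of upregulated amino acid enzymes and in 3 of 4 of upregulated aminoacyl-tRNA synthetases, and in 2 of 17, 4 of 15 and 6 of 16 promoters of the whole lists. A match of letters is a description and not evidence of binding. The start is the first that RefSeq lists for a symbol, and it can lie inside the span of the gene, as for ASNS. The stretches with a match that ends before the start site are shown 5′ to 3′ on the strand of the gene, with the match in capitals, which reads as the reverse complement of the letters where it lies on the other strand.
ATF3 (chr1:212565201-212565239, plus strand): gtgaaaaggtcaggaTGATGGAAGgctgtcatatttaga
CHAC1 (chr15:40953246-40953284, plus strand): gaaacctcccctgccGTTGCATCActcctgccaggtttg
ASNS (chr7:97872453-97872491, minus strand): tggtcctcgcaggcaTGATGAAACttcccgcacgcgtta
GOT1 (chr10:99430800-99430838, minus strand): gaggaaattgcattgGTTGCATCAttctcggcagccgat
AARS1 (chr16:70289671-70289709, minus strand): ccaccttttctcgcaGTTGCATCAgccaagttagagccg

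Of 19 tested regulators and effectors of the integrated stress response, 11 were upregulated and 1 downregulated, with a median log2 fold change of 0.65 (all genes, 0.00). DDIT4, an inhibitor of the mTORC1 kinase complex, had 68.7, 61.5 and 66.3 CPM with vehicle A and 235, 254 and 251 CPM with WESF. The mean with WESF was 3.76-fold that with the vehicle (log2 fold change 1.91, SE 0.051, adjusted p = 1.69e-14). TRIB3, a pseudokinase induced by ATF4, had 26.5, 24.6 and 26.9 CPM with vehicle A and 94.7, 94.6 and 89.95 CPM with WESF (log2 fold change 1.84, SE 0.051, adjusted p = 2.43e-14). SESN2, the leucine sensor sestrin 2, rose by 1.65, and ATF3, a repressor of the same family as ATF4, rose by 1.74. The mRNA of ATF4 itself rose less, with 145, 143 and 136 CPM with vehicle A and 241, 230.4 and 238 CPM with WESF (log2 fold change 0.74, SE 0.044, adjusted p = 1.95e-10). DDIT3 (CHOP), a factor linked to cell death under ER stress, had a log2 fold change of 0.62 and fell below the fold threshold at 0.55 without vehicle A replicate 3. The gene that fell was ATF5 (-0.95), which lies outside the naming rule and was picked after its value was seen.

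Of 23 enzymes for serine, asparagine, proline and one-carbon metabolism, 12 were upregulated and 2 downregulated, with a median log2 fold change of 0.68. ASNS, asparagine synthetase (chr7:97851677-97872542), had 55.5, 51.01 and 50.1 CPM with vehicle A and 160.3, 163 and 158 CPM with WESF (log2 fold change 1.62, SE 0.049, adjusted p = 5.03e-14). CTH, the cystathionine gamma-lyase that makes cysteine, had 6.54, 6.74 and 6.69 CPM with vehicle A and 21.2, 21.7 and 20.9 CPM with WESF (log2 fold change 1.67, SE 0.072, adjusted p = 4.04e-12). ALDH1L2 and MTHFD2, both mitochondrial folate enzymes, rose by 1.45 and 1.07, and PYCR1, which makes proline, by 1.09. PSAT1, of serine synthesis, rose by 0.72. The downregulated enzymes were SHMT1 and PYCR3 (both -0.69), which were named after their values were seen. The list thus held both mitochondrial and cytosolic enzymes among those that rose.

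Amino acid transporters of the plasma membrane changed in both directions, with 7 of 22 upregulated and 4 downregulated (median 0.21). SLC7A5, the large neutral amino acid carrier, had 212, 210.4 and 218 CPM with vehicle A and 466, 442 and 422 CPM with WESF (log2 fold change 1.05, SE 0.046, adjusted p = 5.07e-12). Its heavy chain partner SLC3A2 had a log2 fold change of 0.50, below the fold threshold. SLC7A11, the cystine carrier, rose by 0.77 and the taurine carrier SLC6A6 by 1.07. SLC38A4, a carrier of small neutral amino acids, had 7.68, 8.95 and 8.06 CPM with vehicle A and 1.99, 1.92 and 2.28 CPM with WESF (log2 fold change -1.99, SE 0.13, adjusted p = 6.39e-10). SLC1A3, the glial glutamate transporter and a marker of astrocytes, had 30.9, 33.7 and 30.7 CPM with vehicle A and 10.6, 10.8 and 9.66 CPM with WESF (log2 fold change -1.62, SE 0.069, adjusted p = 4.06e-12). Of 20 cytosolic aminoacyl-tRNA synthetases, 5 were upregulated and 0 downregulated (median 0.34), and 19 passed an adjusted p of 0.05 in edgeR's test whatever their fold, against 68.9% of all genes. AARS1 and GARS1 rose by 0.87 and 0.85.

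Chaperones of the endoplasmic reticulum (ER) are induced through the sensors IRE1, PERK and ATF6 when secretory proteins misfold. Of 32 ER chaperones and genes of the unfolded protein response, 12 were upregulated and 0 downregulated, with a median log2 fold change of 0.40. HSPA5 (BiP), the main chaperone of the ER lumen, had 3211, 3384 and 3330 CPM with vehicle A and 7260, 7604 and 7249 CPM with WESF (log2 fold change 1.16, SE 0.046, adjusted p = 1.5e-12). HSP90B1, its partner of the HSP90 family, had 1501, 1516 and 1470 CPM with vehicle A and 2668, 2837 and 2757 CPM with WESF (log2 fold change 0.88, SE 0.044, adjusted p = 2.2e-11). Together the 32 genes held 13710 to 14250 CPM with the vehicle and 20570 to 21120 CPM with WESF, and HSPA5 was the most abundant. The sensor gene ERN1 (IRE1) rose by 1.33 and DERL3, of ER-associated degradation, by 1.68. XBP1 and HERPUD1 had log2 fold changes of 0.44 and 0.57, below the threshold, and the counts do not distinguish spliced from unspliced XBP1.

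Cytosolic and mitochondrial heat shock proteins had 4 of 24 genes upregulated and 2 downregulated, in all near the 24.1% of all genes. HSPA1A and HSPA1B rose by 1.00 and 0.91. They are near-identical genes between which RSEM divides reads, so their separate values are uncertain. The small heat shock protein HSPB1 had 338, 346 and 315 CPM with vehicle A and 183, 157 and 179 CPM with WESF (log2 fold change -0.94, SE 0.056, adjusted p = 2.18e-10), and HSPB8 fell by 0.75. HSPH1 had a log2 fold change of 0.05. Without WESF high replicate 2, the upregulated genes of this list numbered 2.

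Of 33 targets of NRF2, the factor of the antioxidant response, 6 were upregulated and 1 downregulated (median 0.17). AKR1C1, an aldo-keto reductase, had 21.6, 21.1 and 20.1 CPM with vehicle A and 83.8, 83.2 and 88.6 CPM with WESF (log2 fold change 2.02, SE 0.052, adjusted p = 1.01e-14), and it too has near-identical relatives. HMOX1, haem oxygenase 1, had 58.4, 55.8 and 56.7 CPM with vehicle A and 117, 112 and 109 CPM with WESF (log2 fold change 0.99, SE 0.046, adjusted p = 1.12e-11). TXNRD1, thioredoxin reductase 1, rose by 0.83. NQO1, the quinone reductase often used to read out this response, had 160, 157 and 161 CPM with vehicle A and 126, 119.7 and 119.6 CPM with WESF (log2 fold change -0.39), and the epoxide hydrolase EPHX1 fell by 0.93. The members of the list thus did not move one way. Metallothioneins and the zinc exporter formed a short list of 5 tested genes, 3 of which were downregulated. MT1E fell by 1.63 and SLC30A1 by 0.65, while MT2A had 129.9, 123 and 115 CPM with vehicle A and 152, 109 and 127 CPM with WESF, with overlapping groups.

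Targets of p53 and genes of cell death were upregulated more often than downregulated. Of 25 p53 targets, 7 were upregulated and 1 downregulated (median 0.41), and of 34 genes of the BCL2 family, death receptors and caspases 7 and 4. TNFRSF10B, the death receptor DR5, had 59.4, 55.4 and 60.04 CPM with vehicle A and 128, 129 and 131 CPM with WESF (log2 fold change 1.15, SE 0.046, adjusted p = 1.81e-12). PMAIP1 (NOXA), a BH3-only protein, had 34.4, 33.01 and 32.6 CPM with vehicle A and 95.8, 100.0 and 102 CPM with WESF (log2 fold change 1.57, SE 0.048, adjusted p = 6.38e-14). BMF, another BH3-only protein, had 5.51, 5.44 and 4.58 CPM with vehicle A and 1.23, 1.08 and 1.45 CPM with WESF (log2 fold change -2.04, SE 0.16, adjusted p = 9.29e-09). CDKN1A and MDM2, the best known targets of p53, had log2 fold changes of 0.39 and 0.47, both below the fold threshold. TP53I3 fell by 1.51, while BBC3 (PUMA), GDF15 and TNFRSF10A rose by 1.497, 1.32 and 1.18.

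**Figure D3:**
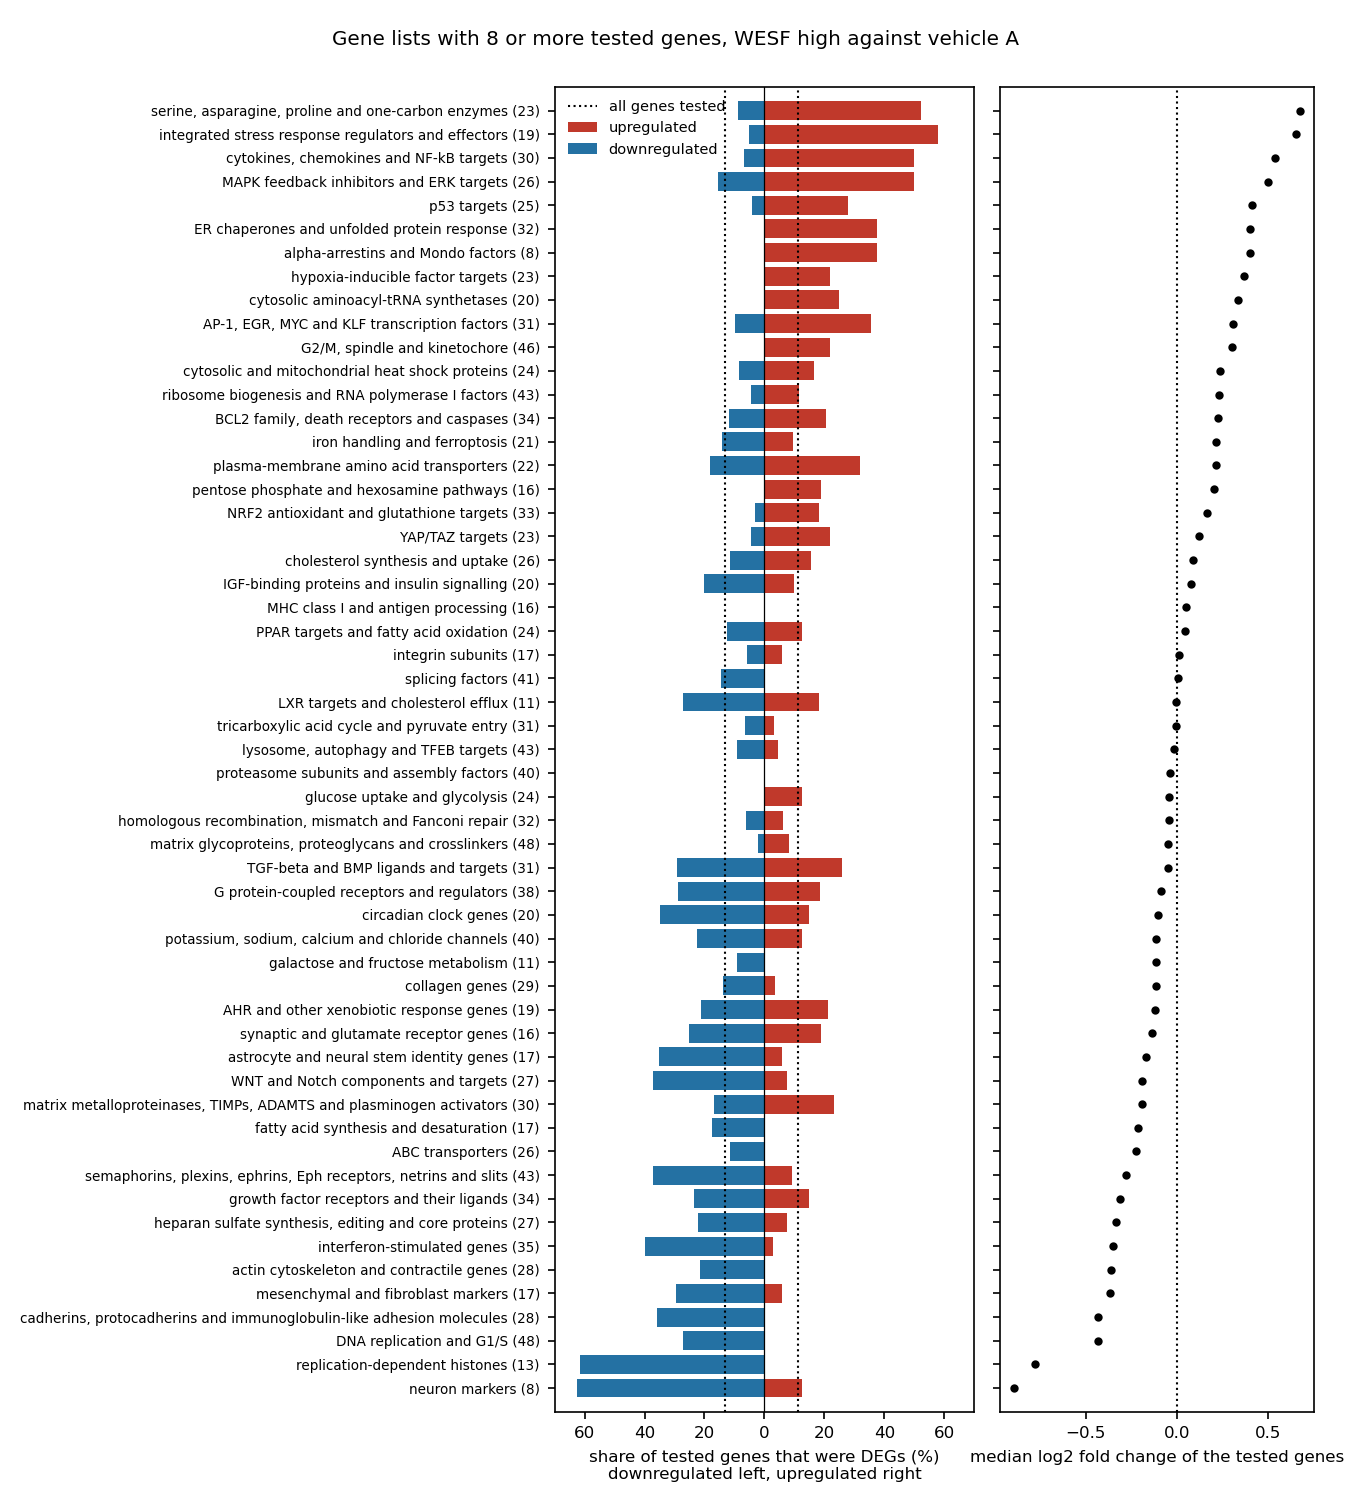
Share of the tested genes of each list that were downregulated (blue, to the left) and upregulated (red, to the right) with high-dose WESF, in percent, and the median log2 fold change of the list (right panel), for lists with at least 8 tested genes. Dotted lines mark all 13129 genes (13.0% down, 11.1% up and a median of 0.00), and the number of tested genes stands in parentheses. Amino acid enzymes and the integrated stress response have the highest medians, and neuron markers and histones the lowest.

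TXNIP and ARRDC4 encode alpha-arrestins that lower glucose uptake, and their transcription is known to respond to glucose-derived metabolites through the factors MLXIP and MLXIPL, which bind E-box pairs. Of 8 alpha-arrestins and Mondo factors, 3 were upregulated and 0 downregulated. TXNIP had 10.4, 9.93 and 10.1 CPM with vehicle A and 358, 355 and 365 CPM with WESF (log2 fold change 5.14, SE 0.054, adjusted p = 4.62e-20). ARRDC4 had 5.11, 6.59 and 4.66 CPM with vehicle A and 36.1, 35.6 and 35.4 CPM with WESF (log2 fold change 2.71, SE 0.088, adjusted p = 1.29e-13). The third was MLXIPL (2.79), named after its value was seen. The palindromic E-box CACGTG lay in 10.0% of all promoters searched and in 1 of the 3 upregulated genes, ARRDC4, whose stretch (GRCh38.p14) was as follows.
ARRDC4 (chr15:97960478-97960513, plus strand): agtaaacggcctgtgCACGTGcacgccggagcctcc

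Of 16 tested genes of the pentose phosphate and hexosamine pathways, 3 were upregulated and 0 downregulated. All 3 belong to the hexosamine pathway, which makes the sugar donor for protein glycosylation. GFPT1, the entry enzyme, had 83.3, 90.9 and 89.6 CPM with vehicle A and 212, 224 and 212 CPM with WESF (log2 fold change 1.295, SE 0.047, adjusted p = 6.35e-13). PGM3 rose by 1.02 and UAP1, the last step, by 1.36. The other 13 of the 16 genes of this list were not DEGs, and its hexosamine members were not counted separately. In glycolysis 3 of 24 genes were upregulated and 0 downregulated, with a median of -0.04. HK2, ENO2 and ALDOC rose by 0.98, 1.02 and 0.93, while LDHA, lactate dehydrogenase A, had 1877, 1788 and 1753 CPM with vehicle A and 1365, 1391 and 1431 CPM with WESF (log2 fold change -0.37). Of 23 targets of hypoxia-inducible factors, 5 were upregulated and 0 downregulated (median 0.37). NDRG1 had 58.5, 56.1 and 59.2 CPM with vehicle A and 197, 194 and 191 CPM with WESF (log2 fold change 1.74, SE 0.045, adjusted p = 1.01e-14), and VEGFA had 272, 276 and 271 CPM with vehicle A and 623, 607 and 580.4 CPM with WESF (log2 fold change 1.14, SE 0.043, adjusted p = 8.74e-13). CA9, a gene used as a marker of hypoxia, had a log2 fold change of 0.27.

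Single genes of lipid metabolism changed in both directions. PDK4, a kinase that inhibits the pyruvate dehydrogenase complex and is known as a target of PPAR, had 0.955, 0.544 and 1.10 CPM with vehicle A and 5.76, 7.73 and 5.32 CPM with WESF (log2 fold change 2.85, SE 0.21, adjusted p = 3.56e-09). PLIN2, a coat protein of lipid droplets, had 57.5, 51.7 and 56.8 CPM with vehicle A and 189, 197 and 193 CPM with WESF (log2 fold change 1.80, SE 0.049, adjusted p = 2.06e-14). In the whole list of PPAR targets and fatty acid oxidation 3 of 24 were upregulated and 3 downregulated, and CPT1A had a log2 fold change of -0.36. Of 26 genes of cholesterol synthesis and uptake, 4 were upregulated and 3 downregulated. SQLE and FDFT1 rose by 0.77 and 0.76. LSS, which acts later in the same route, fell by 1.00. In fatty acid synthesis 0 of 17 genes were upregulated and 3 downregulated, ACACB (-1.58), SCD5 (-1.26) and the regulator SREBF1 (-0.69). FASN and SCD of this list were not DEGs and were higher with WESF. Scaled over batch A, FASN had means of 330 CPM with vehicle A and 399 CPM with high-dose WESF, and SCD 266 and 307 CPM. Together the 17 genes held 2062 to 2165 CPM with vehicle A and 2081 to 2143 CPM with WESF. Of 11 LXR targets and genes of cholesterol efflux 2 were upregulated and 3 downregulated, with a median of -0.0045. The shares of the PPAR and cholesterol synthesis lists lay near those of all genes.

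Before cells divide, they load MCM helicases on DNA and make deoxynucleotides and histones in S phase, and they then build the spindle in mitosis. The 2 programmes moved apart. Of 48 genes of DNA replication and G1/S, 0 were upregulated and 13 downregulated, with a median log2 fold change of -0.44, and 41 of the 48 had a negative change. Of 46 genes of G2/M, spindle and kinetochore, 10 were upregulated and 0 downregulated, with a median of 0.30. MCM3, a subunit of the helicase, had 133, 127 and 128 CPM with vehicle A and 45.8, 49.6 and 46.2 CPM with WESF (log2 fold change -1.46, SE 0.048, adjusted p = 1.58e-13). POLA1, the catalytic subunit of the polymerase that starts DNA strands, had 57.6, 62.7 and 62.7 CPM with vehicle A and 26.8, 26.1 and 26.5 CPM with WESF (log2 fold change -1.20, SE 0.053, adjusted p = 5.75e-12). Changes were smaller in other members, with a log2 fold change of -0.38 for MCM2 and -0.24 for PCNA.

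The factor E2F2 fell by 1.35, while E2F1 had a log2 fold change of -0.51. Sites of E2F, written here as TTCGCGC or TTGGCGC, lay in 8.54% of all promoters, in 19 of 40 promoters of the replication list and in 6 of 10 promoters of its downregulated genes. Stretches of the same RefSeq build with a match, in capitals, follow for 3 of the latter.
POLA1 (chrX:24693766-24693802, plus strand): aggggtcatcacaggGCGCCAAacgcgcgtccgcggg
MCM6 (chr2:135876508-135876544, minus strand): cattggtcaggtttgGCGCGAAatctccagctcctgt
CHAF1A (chr19:4402588-4402624, plus strand): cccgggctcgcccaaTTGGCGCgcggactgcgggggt

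Replication-dependent histone genes fell as well, in 8 of the 13 that passed the filter, with 0 upregulated and a median of -0.78. H2AC6 had 8.56, 8.01 and 7.16 CPM with vehicle A and 3.56, 3.40 and 4.13 CPM with WESF (log2 fold change -1.10, SE 0.12, adjusted p = 3.37e-07), and the 13 genes summed to 32.7 to 36.5 CPM with the vehicle and 21.6 to 21.8 CPM with WESF. Most mRNAs of such histones lack a poly(A) tail and their genes are near-identical copies, so these values are uncertain. On the mitotic side, BUB1, a checkpoint kinase, had 68.1, 68.6 and 70.6 CPM with vehicle A and 119, 123 and 126 CPM with WESF (log2 fold change 0.83, SE 0.044, adjusted p = 5.69e-11). Cyclin A2 (CCNA2) had 75.4, 78.3 and 75.4 CPM with vehicle A and 127, 139.9 and 135 CPM with WESF (log2 fold change 0.81, SE 0.048, adjusted p = 1.81e-10). KIF2C and UBE2C rose by 0.76 and 0.76. CCNB1 and MKI67, which are often used as proliferation markers, had log2 fold changes of 0.10 and 0.07, and the p adjusted by edgeR was 0.0618 and 0.269. The cell-cycle element TTTGAA was in 9.75% of all promoters, in 27 of 40 promoters of the mitotic list and in 2 of 9 of its upregulated genes. In bulk RNA, a change in the share of cells in a phase and a change in RNA per cell cannot be told apart.

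Many cytokines and chemokines rose. Of 30 cytokines, chemokines and targets of NF-kB, 15 were upregulated and 2 downregulated, with a median of 0.54. CXCL8 (interleukin 8), which attracts neutrophils, had 2.57, 3.15 and 3.29 CPM with vehicle A and 64.3, 71.7 and 67.7 CPM with WESF (log2 fold change 4.50, SE 0.082, adjusted p = 1.42e-16). IL1B, interleukin 1 beta, had 3.09, 3.19 and 3.91 CPM with vehicle A and 27.3, 25.8 and 26.7 CPM with WESF (log2 fold change 2.97, SE 0.087, adjusted p = 4.26e-14). CXCL3 and CXCL5 rose by 2.55 and 2.54 from levels below 1 CPM with the vehicle. IL6 had 4.08, 4.06 and 2.93 CPM with vehicle A and 7.70, 7.28 and 7.16 CPM with WESF (log2 fold change 1.00, SE 0.13, adjusted p = 2.45e-06). The downregulated members were the chemokines CXCL12 (-1.79) and CCL2 (-1.67), named after their values were seen. NFKBIA, the inhibitor that NF-kB induces as its own brake, had 31.9, 30.7 and 30.9 CPM with vehicle A and 27.3, 24.2 and 26.0 CPM with WESF (log2 fold change -0.27).

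Interferon-stimulated genes went the other way. Of 35 tested, 1 was upregulated and 14 downregulated, with a median of -0.35. IFIT3, an antiviral RNA-binding protein, had 25.4, 20.1 and 22.6 CPM with vehicle A and 10.1, 8.66 and 8.21 CPM with WESF (log2 fold change -1.33, SE 0.095, adjusted p = 2e-09). IFIT1 had 10.2, 8.80 and 10.1 CPM with vehicle A and 4.61, 4.28 and 3.82 CPM with WESF (log2 fold change -1.19, SE 0.11, adjusted p = 4.49e-08), SAMD9L fell by 1.39 and HERC6 by 1.41. Not all members fell. ISG15 had a log2 fold change of -0.53, and the member that rose was STAT2 (0.96), named after its value was seen. Of 16 genes of MHC class I and antigen processing, 0 were DEGs, and 7 passed an adjusted p of 0.05 in edgeR's test whatever their fold, a lower share than the 68.9% of all genes. B2M, the light chain of class I molecules, had a log2 fold change of 0.09.

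Feedback inhibitors of MAP kinases and targets of ERK were upregulated in 13 of 26 genes and downregulated in 4 (median 0.50). DUSP1, a phosphatase of MAP kinases, had 42.7, 39.3 and 41.3 CPM with vehicle A and 154, 153 and 158 CPM with WESF (log2 fold change 1.92, SE 0.047, adjusted p = 6.06e-15). DUSP6, which acts on ERK, had 24.2, 22.7 and 23.9 CPM with vehicle A and 54.2, 58.6 and 58.8 CPM with WESF (log2 fold change 1.28, SE 0.054, adjusted p = 3.87e-12), and SPRY2, an inhibitor of receptor signalling, rose by 0.83. DUSP10, a phosphatase of JNK and p38, had 16.7, 17.97 and 16.2 CPM with vehicle A and 6.18, 5.86 and 6.33 CPM with WESF (log2 fold change -1.47, SE 0.083, adjusted p = 1.01e-10). PHLDA1 and the growth factor EREG rose by 1.39 and 1.46. Of 31 immediate early and related transcription factors, 11 were upregulated and 3 downregulated. JUN had 126, 128 and 124 CPM with vehicle A and 263, 263 and 256 CPM with WESF (log2 fold change 1.05, SE 0.042, adjusted p = 1.72e-12), and MYC rose by 0.77. FOSB and MAFF rose by 1.57 and 1.53, while FOS had overlapping groups and a log2 fold change of 0.02. EGR3 had 10.7, 11.3 and 12.9 CPM with vehicle A and 3.68, 3.10 and 2.77 CPM with WESF (log2 fold change -1.86, SE 0.12, adjusted p = 5.75e-10). The downregulated factors of this list numbered 1 without WESF high replicate 2.

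The letters TGACTCA, to which dimers of JUN and FOS bind, were in 3.06% of all promoters, in 2.88% of those of upregulated DEGs and in 4.07% of those of downregulated DEGs. Among the 24 genes with the largest changes, 19 had a promoter in the table, and the letters lay in 2 of 8 that rose and 3 of 11 that fell. They are shown in capitals for CXCL8 and ARRDC4, which rose, and VAV3 and LYPD1, which fell, so they occurred in both directions of change (GRCh38.p14).
CXCL8 (chr4:73740417-73740453, plus strand): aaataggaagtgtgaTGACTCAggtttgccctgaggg
ARRDC4 (chr15:97960569-97960605, plus strand): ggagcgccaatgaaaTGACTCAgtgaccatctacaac
VAV3 (chr1:107688594-107688630, minus strand): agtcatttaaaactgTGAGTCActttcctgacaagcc
LYPD1 (chr2:132671715-132671751, minus strand): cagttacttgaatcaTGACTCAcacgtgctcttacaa

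In the TGF-beta and BMP families 8 of 31 genes were upregulated and 9 downregulated. INHBA, the subunit of activin A, had 70.4, 70.3 and 71.8 CPM with vehicle A and 311, 334 and 317 CPM with WESF (log2 fold change 2.18, SE 0.046, adjusted p = 8.35e-16). BMP4 had 11.5, 10.4 and 11.2 CPM with vehicle A and 3.13, 2.90 and 2.86 CPM with WESF (log2 fold change -1.89, SE 0.11, adjusted p = 9.96e-11), and ID2, a target of BMP signalling, had 24.6, 25.7 and 23.1 CPM with vehicle A and 5.76, 5.76 and 5.53 CPM with WESF (log2 fold change -2.10, SE 0.078, adjusted p = 6.64e-13). ID1, a target of the same signal, had a log2 fold change of 0.01. BMP6 rose by 1.93, from below 1 CPM.

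Of 27 components and targets of WNT and Notch signalling, 2 were upregulated and 10 downregulated (median -0.19). TCF7, a nuclear partner of beta-catenin, had 74.8, 76.9 and 75.02 CPM with vehicle A and 17.99, 16.2 and 19.2 CPM with WESF (log2 fold change -2.08, SE 0.058, adjusted p = 2.43e-14). DKK1, a secreted WNT antagonist and itself a WNT target, had 332, 318 and 316 CPM with vehicle A and 124, 118 and 129.7 CPM with WESF (log2 fold change -1.38, SE 0.047, adjusted p = 2.63e-13). AXIN2, another target, fell by 0.76, and LFNG, which modifies Notch, by 2.11. WNT2B, a ligand, rose, with 4.26, 3.37 and 4.30 CPM with vehicle A and 8.76, 9.01 and 8.35 CPM with WESF (log2 fold change 1.13, SE 0.11, adjusted p = 1.35e-07). HES1, a target of Notch, had a log2 fold change of -0.20.

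Guidance and adhesion molecules, through which neural cells sense their surroundings, fell more often than they rose. Of 43 semaphorins, plexins, ephrins, Eph receptors, netrins and slits, 4 were upregulated and 16 downregulated (median -0.28). EPHA3, an Eph receptor (chr3:89107621-89482134), had 63.2, 70.7 and 71.9 CPM with vehicle A and 13.4, 13.2 and 13.3 CPM with WESF (log2 fold change -2.36, SE 0.064, adjusted p = 1.79e-14). SEMA3A, a secreted repellent, had 89.5, 94.2 and 96.3 CPM with vehicle A and 42.7, 41.98 and 43.4 CPM with WESF (log2 fold change -1.13, SE 0.048, adjusted p = 3.56e-12). SEMA3D, UNC5C and EFNA1 fell by 2.14, 2.07 and 1.29, and EPHA2 had a log2 fold change of 0.22. Of 28 cadherins, protocadherins and immunoglobulin-like adhesion molecules, 0 were upregulated and 10 downregulated (median -0.43). PCDH10 had 25.7, 28.7 and 24.3 CPM with vehicle A and 9.35, 8.27 and 7.56 CPM with WESF (log2 fold change -1.64, SE 0.086, adjusted p = 4e-11), and PCDH18, PCDH9 and CDH10 fell by 2.15, 1.28 and 2.50. N-cadherin (CDH2) had a log2 fold change of -0.08.

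Among integrins, ITGB8, the partner of the alpha v subunit that releases TGF-beta from its latent form, had 44.6, 48.2 and 56.4 CPM with vehicle A and 4.78, 4.82 and 5.53 CPM with WESF (log2 fold change -3.30, SE 0.100, adjusted p = 5.49e-14). ITGB3, another partner of alpha v, had 10.5, 11.7 and 12.2 CPM with vehicle A and 29.8, 27.9 and 29.4 CPM with WESF (log2 fold change 1.34, SE 0.068, adjusted p = 2.72e-11). ITGAV and ITGB1 had log2 fold changes of 0.12 and -0.01, and 15 of 17 integrin genes were not DEGs. In heparan sulfate synthesis and editing 2 of 27 genes were upregulated and 6 downregulated (median -0.34). HS3ST1, a sulfotransferase, had 3.05, 2.90 and 2.35 CPM with vehicle A and 0.423, 0.541 and 0.571 CPM with WESF (log2 fold change -2.43, SE 0.23, adjusted p = 6.69e-08), and NDST1 and EXTL2 fell by 0.67 and 1.10. The largest fall of the list was in NDST3, a deacetylase and sulfotransferase (-2.96), and GPC2, a core protein that carries heparan sulfate, had 8.74, 7.10 and 8.29 CPM with vehicle A and 16.3, 17.1 and 18.8 CPM with WESF (log2 fold change 1.11, SE 0.088, adjusted p = 7.53e-09). The polymerase gene EXT1 had a log2 fold change of -0.11.

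The contractile apparatus fell in part, with 0 of 28 genes upregulated and 6 downregulated (median -0.36). ACTA2, smooth muscle actin, had 102, 107 and 99.2 CPM with vehicle A and 50.5, 49.7 and 52.4 CPM with WESF (log2 fold change -1.02, SE 0.048, adjusted p = 1.22e-11), and TPM1, a tropomyosin, had 629, 593 and 608 CPM with vehicle A and 320, 351 and 335 CPM with WESF (log2 fold change -0.86, SE 0.046, adjusted p = 5.21e-11). TAGLN and MYL9 had log2 fold changes of -0.33 and -0.54, below the threshold. Most collagens and matrix proteins were not DEGs. Of 29 collagen genes 1 was upregulated and 4 downregulated, and of 48 matrix glycoproteins, proteoglycans and crosslinkers 4 and 1. COL1A1 had 3858, 3826 and 3717 CPM with vehicle A and 3020, 2833 and 2971 CPM with WESF (log2 fold change -0.37), and fibronectin (FN1) had a log2 fold change of -0.02. HAS2, the hyaluronan synthase, had 49.8, 44.6 and 52.5 CPM with vehicle A and 138, 139 and 140.1 CPM with WESF (log2 fold change 1.51, SE 0.054, adjusted p = 4.98e-13). TNXB rose from below 0.5 CPM by 3.46, and it shares sequence with a truncated copy, so its value is uncertain. Of 30 matrix proteases and their inhibitors 7 were upregulated and 5 downregulated. ADAMTS4, an aggrecanase, rose by 2.79 and ADAMTS6 by 1.48, and PLAUR, the urokinase receptor, had 62.9, 58.6 and 58.6 CPM with vehicle A and 180.3, 169 and 183 CPM with WESF (log2 fold change 1.56, SE 0.049, adjusted p = 8.85e-14).

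Of 34 growth factor receptors and ligands, 5 were upregulated and 8 downregulated (median -0.31). Among those named by rule, the ligands FGF5 and VEGFA had log2 fold changes of 1.19 and 1.14, the ligand PDGFD of -1.47, and the receptors KIT, PDGFRB and PDGFRA of -0.98, -0.80 and -0.66. EGFR and MET had log2 fold changes of -0.38 and -0.37. Of 20 IGF-binding proteins and genes of insulin signalling 2 were upregulated and 4 downregulated. PAPPA, a protease of IGF-binding proteins, rose by 1.14. IRS1, the insulin receptor substrate, had 94.9, 102 and 111 CPM with vehicle A and 49.3, 46.5 and 46.5 CPM with WESF (log2 fold change -1.11, SE 0.057, adjusted p = 3.29e-11), and IRS2 rose by 0.61, a call lost at 0.52 without vehicle A replicate 1 and at 0.55 against 20 µg/mL WESF.

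Some genes known from neurons were expressed in these cells. Of 8 tested neuron markers, 5 were downregulated and 1 upregulated, with a median of -0.90, and the 8 summed to 172 to 176 CPM with the vehicle and 88.6 to 94.5 CPM with WESF. SNAP25, a protein of vesicle fusion, had 27.99, 27.5 and 29.02 CPM with vehicle A and 8.72, 8.91 and 8.87 CPM with WESF (log2 fold change -1.67, SE 0.066, adjusted p = 1.42e-12). MAP2 fell by 1.54 and NEFL fell by 2.09, and RBFOX3, the marker NeuN, rose from below 0.2 CPM to between 0.527 and 0.837 CPM. SLC17A6 was at 0 in all 6 libraries. Of the 17 tested genes of astrocytes and neural stem cells 1 was upregulated and 6 downregulated, SLC1A3 most, and NES (nestin) had 6.61, 6.99 and 8.29 CPM with vehicle A and 2.62, 4.09 and 2.81 CPM with WESF (log2 fold change -1.21, SE 0.15, adjusted p = 1.79e-06). VIM, the most abundant gene of that list, had a log2 fold change of -0.01. Of 17 mesenchymal markers 1 was upregulated and 5 downregulated (median -0.37), with log2 fold changes of 0.82 for ZEB1 and -0.99 for SNAI2. Of 4 tested oligodendrocyte markers MBP rose by 0.89, and of 3 tested endothelial markers PECAM1 fell by 0.76, a call lost in 9 alternatives. The part of a change in cell composition in these falls was not tested.

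Receptors of small ligands and ion channels changed in both directions. Of 38 G protein-coupled receptors and their regulators, 7 were upregulated and 11 downregulated. HTR2A, the serotonin receptor 2A, had 6.80, 6.74 and 7.86 CPM with vehicle A and 0.593, 0.492 and 0.439 CPM with WESF (log2 fold change -3.79, SE 0.18, adjusted p = 1.43e-11), and HTR1D, another serotonin receptor, had 3.75, 3.15 and 3.95 CPM with vehicle A and 11.1, 10.8 and 10.4 CPM with WESF (log2 fold change 1.57, SE 0.11, adjusted p = 9.72e-10). Of 40 potassium, sodium, calcium and chloride channels, 5 were upregulated and 9 downregulated. PIEZO2, a channel opened by touch, had 30.3, 35.5 and 37.7 CPM with vehicle A and 11.5, 10.9 and 10.5 CPM with WESF (log2 fold change -1.65, SE 0.083, adjusted p = 2.34e-11), and the sodium channel gene SCN9A fell by 1.66. Counted by symbol, after the values were seen, 11 of 37 potassium channel genes were upregulated and 7 downregulated, with a median of 0.14.

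Of 20 circadian clock genes and their outputs 7 were downregulated and 3 upregulated. HLF, a PAR bZIP factor whose transcription follows the clock, had 6.10, 7.21 and 7.59 CPM with vehicle A and 0.677, 1.18 and 1.23 CPM with WESF (log2 fold change -2.76, SE 0.18, adjusted p = 7.58e-10). PER3 had 58.6, 64.7 and 66.1 CPM with vehicle A and 29.04, 27.9 and 26.97 CPM with WESF (log2 fold change -1.17, SE 0.057, adjusted p = 1.81e-11). PER2 and DBP both fell by 1.23 on the log2 scale. The core gene BMAL1 had a log2 fold change of -0.07 and PER1 of 0.06. All libraries were taken at 24 h and the phase of the clock in the groups was not measured.

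Of 41 splicing factors 6 were downregulated and 0 upregulated, a share near the 13.0% of all genes that were downregulated, with a median of 0.00. SRSF1, a serine- and arginine-rich factor, had 239.5, 243 and 244 CPM with vehicle A and 105, 99.2 and 103 CPM with WESF (log2 fold change -1.24, SE 0.043, adjusted p = 3.15e-13), and SRSF2 had 166, 174 and 165 CPM with vehicle A and 90.7, 88.3 and 90.0 CPM with WESF (log2 fold change -0.91, SE 0.044, adjusted p = 1.55e-11). SRSF6 and TRA2A fell by 0.78 and 0.78. In ribosome biogenesis 5 of 43 genes were upregulated and 2 downregulated (median 0.23), with rises of 0.98 in NOLC1 and 0.81 in DDX21. For several other systems the DEGs were also at or below the share of all genes. Proteasome subunits had 0 DEGs of 40 and a median of -0.04, and 22 passed an adjusted p of 0.05 in edgeR's test whatever their fold, a lower share than the 68.9% of all genes. The tricarboxylic acid cycle had 1 upregulated and 2 downregulated of 31, lysosome and autophagy 2 and 4 of 43, DNA repair 2 and 2 of 32 and ABC transporters 0 and 3 of 26. SQSTM1 (p62), an autophagy receptor, had 552, 523 and 527 CPM with vehicle A and 334, 339.5 and 334 CPM with WESF (log2 fold change -0.67, SE 0.042, adjusted p = 4.06e-10), and WIPI1, of autophagosome formation, rose by 1.38.

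Of 19 genes of the response to xenobiotics, including targets of the aryl hydrocarbon receptor, 4 were upregulated and 4 downregulated, above the shares of all genes in both directions. TIPARP, a target of this receptor, had 44.9, 45.1 and 46.9 CPM with vehicle A and 88.4, 91.7 and 86.9 CPM with WESF (log2 fold change 0.96, SE 0.046, adjusted p = 1.47e-11). CYP1A1, the best known target, had 1.21, 1.09 and 1.17 CPM with vehicle A and 1.19, 0.886 and 1.10 CPM with WESF, with overlapping groups. CYP24A1, which degrades vitamin D, rose by 1.298, and the glutathione transferases GSTA4 and GSTM2 had log2 fold changes of -0.81 and -0.78. Of 23 targets of YAP and TAZ 5 were upregulated and 1 downregulated. CCN1, a secreted matrix protein, had 516, 502 and 503 CPM with vehicle A and 972, 989 and 1087 CPM with WESF (log2 fold change 1.00, SE 0.048, adjusted p = 1.43e-11), DLC1 rose by 1.42, and ANKRD1 fell by 1.17. Of 21 genes of iron handling and ferroptosis 2 were upregulated and 3 downregulated, of 16 synaptic and glutamate receptor genes 3 and 4, and of 11 genes of galactose and fructose metabolism 0 and 1.

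When all genes of the table were tested together (16030 genes), 2901 were not protein-coding, and 16.1% of these were upregulated and 17.6% downregulated. Of 1771 long noncoding RNAs (lncRNAs) 17.2% were upregulated and 20.8% downregulated, against 10.96% and 12.9% of protein-coding genes in the same fit. The shares depended on level, and the fifth of protein-coding genes with the lowest mean CPM had 18.05% upregulated and 26.3% downregulated. The classes were not compared within level. The lncRNA APPAT had 6.78, 6.20 and 4.90 CPM with vehicle A and 0.577, 0.860 and 0.726 CPM with WESF (log2 fold change -3.05, SE 0.20, adjusted p = 5.21e-09), and LINC01963 had 9.17, 7.96 and 9.38 CPM with vehicle A and 1.61, 1.62 and 1.45 CPM with WESF (log2 fold change -2.50, SE 0.13, adjusted p = 5.98e-10). GLIPR1-AS1, antisense to GLIPR1, rose by 2.02 and RAP2C-AS1 fell by 2.18. The largest rise at a mean of 2 CPM or more was in ALMS1-IT1, a transcript within ALMS1, with 0.535, 0.387 and 0.759 CPM with vehicle A and 4.82, 8.22 and 6.70 CPM with WESF (log2 fold change 3.54, SE 0.25, adjusted p = 1.26e-08). The library kit keeps the strand, but RSEM's strand setting is not given in the sources used here, so reads of antisense and overlapping genes and their partners cannot be told apart. For the pseudogenes RPSAP52, KRT8P47 and SMG1P7, which rose, and TTC3P1, which fell, reads can also be divided with the parent genes.

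The calls also differed with the size of genes. In the fifth of protein-coding genes with the longest span on the genome (median 170400 bases), 6.78% were upregulated and 18.3% downregulated. In the fifth with the shortest span (median 5950 bases) the shares were 13.7% and 13.6%. The longest genes begin at a span of 101984 bases. EPHA3, PCDH9, PIEZO2 and VAV3, which fell, and ADAMTS6, which rose, are among them. Within the fifth with the lowest mean CPM, 37.6% of the longest genes and 23.5% of the other genes were downregulated, and within the fifth with the highest mean CPM 6.30% and 4.99%. These are descriptions across genes, which are not independent replicates.

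**Figure D4:**
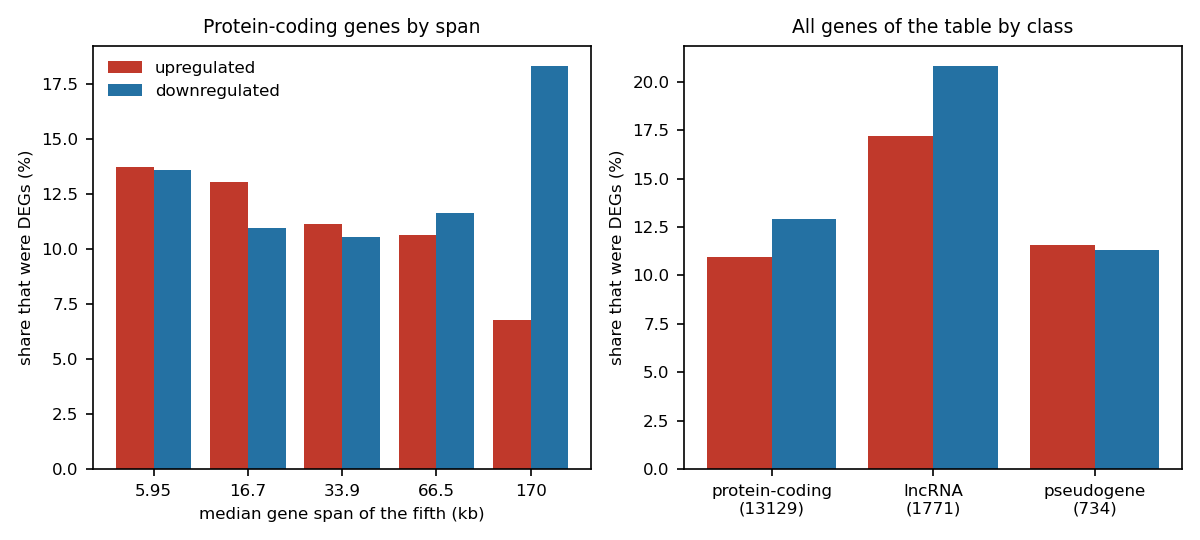
Share of genes that were upregulated (red) and downregulated (blue) DEGs with high-dose WESF, in percent, by quintile of gene span (left, protein-coding genes) and by class in the fit over all genes of the table (right). The longest genes have the lowest share up (6.78%) and the highest share down (18.3%), and lncRNAs have higher shares in both directions than protein-coding genes, without regard to level.

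At the lower doses of WESF, which were compared with the same vehicle libraries, few genes were DEGs. At 100 µg/mL 0.275% of 13112 genes were DEGs, with 12 up (0.0915%) and 24 down (0.183%), and at 20 µg/mL 0.0% of 13131 were. In edgeR's test 537 genes (4.1%) passed an adjusted p of 0.05 whatever their fold and 2753 of 13112 an unadjusted p of 0.05 at 100 µg/mL, against 0 and 470 (3.58%) at 20 µg/mL. TXNIP had a log2 fold change of 1.297 at 100 µg/mL and ITGB8 one of -0.77. CXCL8, KRTAP2-3 and GSDMB rose by 0.72, 0.63 and 0.60, and PADI2 changed by -0.73. The integrated stress response had a median of 0.06 at 100 and 0.04 at 20 µg/mL, replication genes had -0.02 at both doses, and mitotic genes had 0.05 and -0.01. None of these 3 lists had a DEG at these doses by edgeR's test, although at 100 µg/mL 1 member of each passed an adjusted p of 0.05 at a smaller fold and 9, 6 and 11 of their 19, 48 and 46 members had an unadjusted p under 0.05, to be read against the 2753 of 13112 in all genes. ASNS had a log2 fold change of 0.28 at 100 µg/mL, EPHA3 of -0.46 and DUSP1 of 0.32.

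**Figure D5:**
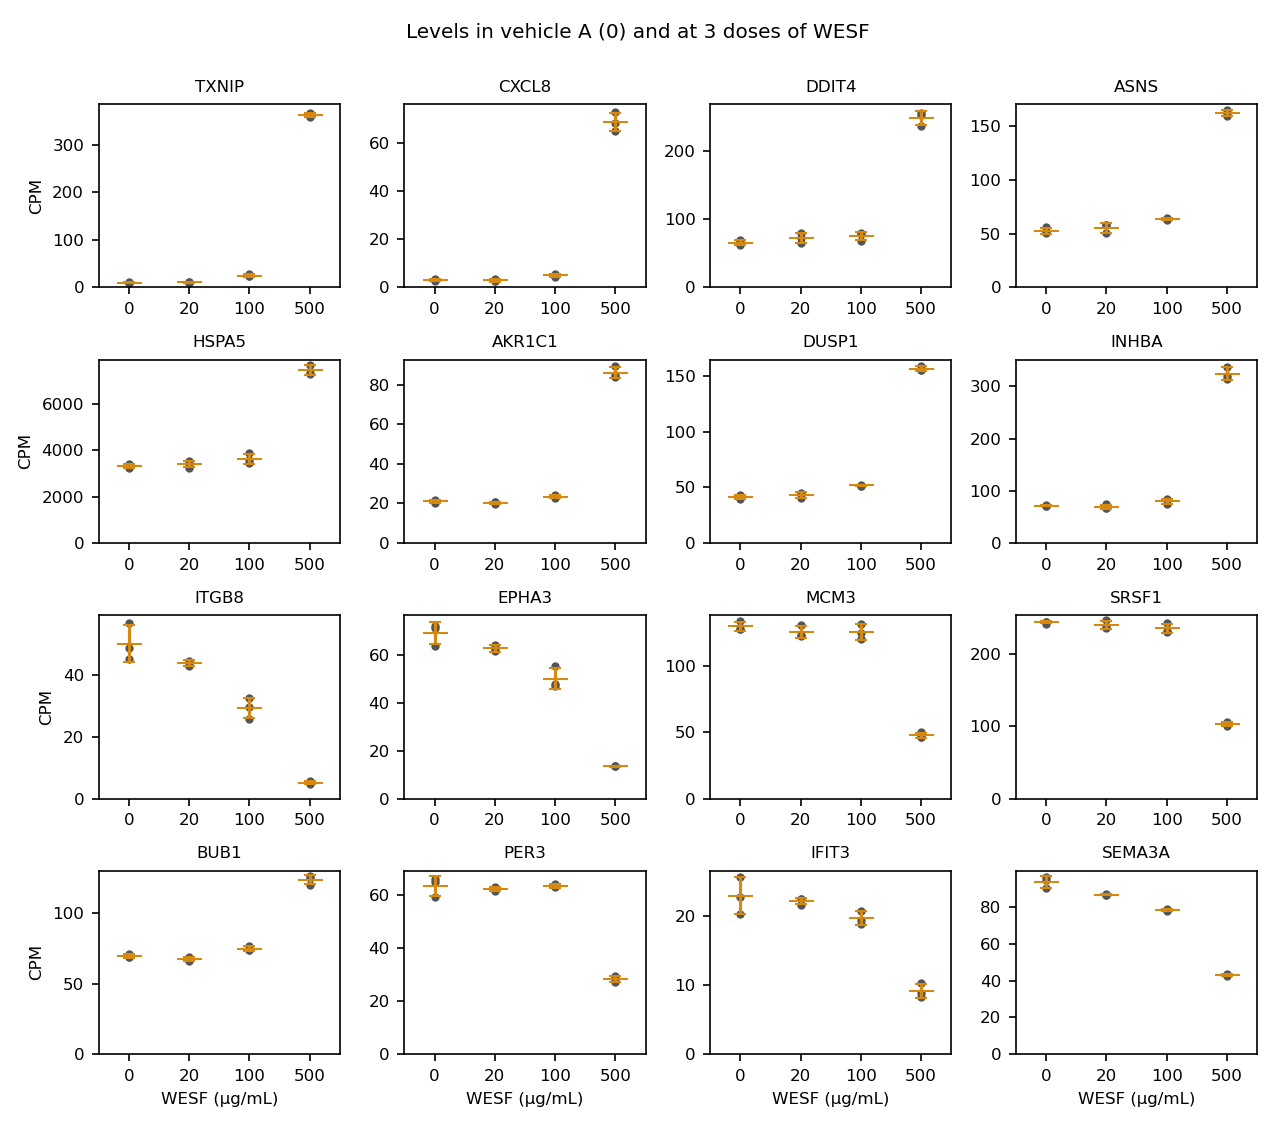
CPM of 16 genes (y axis, from 0) in vehicle A (0) and at 20, 100 and 500 µg/mL WESF (x axis, doses evenly spaced), scaled over the 12 libraries of batch A. Points are the 3 libraries of each group and bars the mean ± SD. For most genes the libraries at 20 and 100 µg/mL lie near the vehicle and those at 500 µg/mL apart, while ITGB8, EPHA3 and SEMA3A are also lower at 100 µg/mL.

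With 310 µg/mL EESF, compared with vehicle B, 8.21% of 13092 genes were upregulated and 9.17% downregulated. The 2 comparisons share no library, but extract, dose and batch cannot be told apart. With EESF 10 genes of the integrated stress response were upregulated and 0 downregulated, of amino acid enzymes 7 and 0, of ER chaperones 7 and 0, of cytokines 12 and 1 and of interferon-stimulated genes 1 and 14. Replication genes had 0 and 9, mitotic genes 4 and 0 and histones 0 and 7. Some lists held more DEGs with EESF than with WESF. Of the adhesion molecules 17 were downregulated and 2 upregulated with EESF (median -0.71), against 10 and 0 with WESF (median -0.43), and of alpha-arrestins and Mondo factors 5 were upregulated and 1 downregulated with EESF, against 3 and 0 with WESF. These differences between lists were not tested. The difference between the changes, EESF minus WESF, was tested over 13376 genes, and 26.0% had an adjusted p under 0.05 at any size, 3.88% with a difference beyond 1.5-fold (285 genes higher and 234 lower with EESF relative to WESF). DDIT4 rose less with EESF (difference -0.89, adjusted p = 9.49e-06), as did PMAIP1 (-0.88, adjusted p = 8.74e-06) and GFPT1 (-0.73, adjusted p = 2.52e-05). MCM3 and TCF7 fell less with EESF (differences 0.59, adjusted p = 5.73e-05 and 0.77, adjusted p = 7.57e-05), and PDLIM7, an actin-associated protein, had -0.94 with WESF and -0.22 with EESF (difference 0.71, adjusted p = 5.54e-05). Other genes changed more with EESF. COL12A1, a collagen, had -0.81 with WESF and -1.17 with EESF (difference -0.36, adjusted p = 0.023). BCL2L11, a BH3-only protein, had -0.24 and -0.86 (difference -0.63, adjusted p = 0.00319), and CYP1A1 had -0.12 and 0.93 (difference 1.06, adjusted p = 0.0191). For PYCR1 and HSP90B1 the differences were 0.02, adjusted p = 0.858 and -0.15, adjusted p = 0.0714, and a p that misses the threshold does not show that the extracts act alike.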

How the data were processed

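RNA of SW1783 cells was sequenced by the authors from directional MGIEasy libraries as paired 100 bp reads. Per the submitters' processing notes and the methods, reads were checked with FastQC 0.11.9, trimmed with Trim Galore 0.6.6, aligned with STAR 2.7.9a and quantified with RSEM 1.3.3, and the authors deposited the expected counts of 60675 genes per library, not normalized. The methods write the build as both GRCh38 and hg19, and the annotation was Ensembl's GRCh38 set. RSEM divides reads among similar genes, and some values were not whole. Symbols and positions came from GENCODE on GRCh38, in which 56558 genes were found, 19586 of them protein-coding, and promoters from RefSeq, where the first start listed for each symbol was taken.

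Expected counts were rounded, filtered with filterByExpr and fitted with edgeR 4.0.16 (R 4.3.3) on 6 libraries, protein-coding genes first and all genes of the table in a separate fit. The SE is the log2 fold change over the root of F. DESeq2 1.42.0 served as an alternative, and the difference between extracts was fitted on 12 libraries. On simulated counts of this comparison (13117 genes) edgeR recovered 99.5% of 200 changed genes, and 1.97% of its 203 calls were unchanged genes. DESeq2 recovered 97%, with 0.51% of its 195 calls on unchanged genes. These shares describe the simulated counts only. How they carry over to the DEGs of the real libraries, among them those near the fold threshold or with few counts, was not tested. Replicates differed by more than counting noise (chi-square per degree of freedom 3.42 to 8.05). Samples with the same number did not deviate together. Genes named in the text were the 12 DEGs that rose most and the 12 that fell most, with at least 5 CPM and no overlap, in each list its fixed anchor genes and up to 4 DEGs of the largest change with at least 1 CPM, and 8 noncoding genes each way with at least 2 CPM. The comparison, its members and the 59 gene lists were chosen with earlier results of these data known. Some genes that this rule named are not reported here. Tables were computed with Python 3.11.15, numpy 2.4.6 and pandas 2.3.3, and figures with matplotlib 3.10.9.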

Additional observations from a re-analysis of the deposited data

Results flagged for a closer look

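For 17 of the 24 genes with the largest changes, the change with high-dose EESF differed from that with high-dose WESF when the difference was tested with edgeR over 12 libraries (adjusted p under 0.05, which 26.0% of all 13376 genes passed). Values are the log2 change with EESF minus that with WESF. Among genes that rose, the difference was -1.48 for CXCL8, -1.03 for GSDMB, -0.8 for HOXB9, -0.75 for THBD, -0.66 for IL1B, -0.6 for PANX2, -0.57 for ADM2, -0.57 for INHBA and -0.32 for TXNIP, so that all 9 rose less with EESF. Among genes that fell, it was 1.12 for RRAD, 0.96 for VAV3, 0.95 for PADI2, 0.9 for CLIC3, 0.84 for LYPD1, 0.74 for RAB7B, 0.71 for FAM13C and 0.65 for CPA4, so that all 8 fell less. The difference of PANX2 lost its call in 4 alternative settings. The genes were chosen for large changes with WESF, and extract, dose and batch cannot be told apart.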

How the results depend on the processing

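The number of DEGs was 3158 and lay between 2994 (DESeq2) and 3431 (no filter on low counts) among protein-coding genes, at 4111 when all genes of the table were fitted, and between 3118 and 3186 when 1 replicate was left out. Of the 3158, DESeq2 also called 2990, and 2740 were called when the libraries at 20 µg/mL served as the reference. With the replicate number as a block 3156 genes were called, 3136 of them shared, and the correlations between samples of the same number were -0.013, -0.045 and -0.043, so the numbers were not taken to pair the samples. Among log2 fold changes of the 230 protein-coding genes that were named and were DEGs, 3187 values under the alternatives kept their direction and their side of the threshold, 32 kept the direction only and 0 reversed. Named genes that were not DEGs were not recomputed. With the low dose as reference 10 genes lost their call, MT1X, COL21A1, CNN1, PIK3R1, IRS2, PDGFRA, PECAM1, CHEK2, PARP2 and NRXN3, and PECAM1 lost it in 9 settings in all. For counts of DEGs per list, 1598 values stayed within 1.5 times the main count and 54 did not, nearly all in lists with few DEGs. Of these 54, 15 arose with the low dose as reference and 3 to 7 with each replicate left out in turn. PANX2 lost its difference between extracts in 4 settings. With counts thinned to equal depth 3056 genes were called, 2936 of them shared.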

Other observations

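Gene families were also counted by symbol, after the values were seen, and without a test, and only some of them are given here. Protocadherins, adhesion molecules best known from neurons, had 29 of 41 tested members downregulated and 0 upregulated, with a median log2 fold change of -0.91 (all genes, 13.0% downregulated and a median of 0.00). PCDHB2 had 13.7, 13.9 and 15.1 CPM with vehicle A and 6.90, 7.19 and 6.24 CPM with WESF, and PCDHGA6 had 5.88, 7.61 and 7.04 CPM and 1.86, 1.77 and 2.24 CPM. The clustered protocadherins share exons, among which RSEM divides reads, so the values of single members are uncertain.

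Of 10 tested keratins 5 were upregulated (KRT34, KRT86, KRT81, KRT10 and KRT15) and 2 downregulated (KRT18 and KRT7). All 3 tested keratin-associated proteins were upregulated, and KRT34 had 0.22, 0.33 and 0.27 CPM with vehicle A and 3.09, 3.00 and 2.99 CPM with WESF. KRT81 had 115.0, 108.4 and 109.1 CPM against 210.4, 191.8 and 202.4 CPM. KRT18, a keratin of simple epithelia, had 132.0, 120.8 and 119.5 CPM against 44.2, 49.3 and 45.8 CPM. Of 7 tested SOX factors 4 were downregulated and 0 upregulated, and of 13 KLF factors 4 were upregulated and 0 downregulated. Over all genes 11.1% were upregulated and 13.0% downregulated, and families this small are read with caution. Other families changed in both directions. Of 33 HOX genes 2 were upregulated and 6 downregulated, of 24 FOX genes 3 and 5, and of 35 interleukins and their receptors 9 and 7. Among 23 genes of intraflagellar transport and the BBS complex, which serve the primary cilium, 6 were downregulated and 1 upregulated. Genes with a long span on the genome were also downregulated more often with EESF, at 19.4% of the 2616 longest against 6.63% of the other genes.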
